A study of Mus musculus with 2 samples.

Results

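Amino acid transporter transcripts were compared between hepatocytes carrying the phosphomimetic ezrin EzrinT567D and hepatocytes sorted as negative for it. The members are the genes of the 7 solute carrier families Slc1, Slc3, Slc6, Slc7, Slc36, Slc38 and Slc43, taken by gene symbol from probe sets annotated to a single gene. The rule found 63 genes with 125 probe sets among 18193 genes with 34945 probe sets on the array. It used no measured value. It also takes in 3 genes whose symbols end in os, which are named for lying opposite a transporter gene and are no transporters, and some Slc6 carriers of monoamines or creatine.

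Hepatocytes take amino acids from portal blood for protein synthesis, gluconeogenesis, urea synthesis and glutathione. They do so through carriers with overlapping substrates. Sodium-coupled carriers of Slc1, Slc6 and Slc38 accumulate amino acids against a gradient, the Slc7 light chains exchange them across the membrane after pairing with a Slc3 heavy chain, and Slc43 carriers let large neutral amino acids equilibrate. Periportal hepatocytes break down glutamine and make urea, whereas pericentral hepatocytes take up glutamate and ammonia and make glutamine.

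The samples came from male FVB mice of 6 to 8 weeks. Per the labels' protocols, plasmids PT3EF5α EzrinT567D (10 µg) and pCMV/SB (0.8 µg, a Sleeping Beauty transposase source) were given together in 2 ml of saline through the tail vein within 5 to 7 s, a hydrodynamic injection that delivers DNA to hepatocytes. After 1 week, livers were digested with collagenase and the cells sorted into GFP+ and GFP- hepatocytes, which the labels equate with EzrinT567D positive and EzrinT567D negative. Both sorted groups therefore came from injected mice, and each was measured on 1 Affymetrix mouse expression array. The source names and growth protocol give 1 week and a chow diet. The description fields disagree with them, giving 2 months for both samples and a different diet for each (chow for GFP- cells, fast food for GFP+ cells). Diet and sort therefore cannot be told apart from the labels. How many mice were used, and whether cells were pooled, is not given in the sources used here.

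Values are linear MAS5 signals as deposited, with a median of 174.2 for negative and 187.6 for positive hepatocytes and equal trimmed means. To tell signal from background, 85 probe sets for sensory receptors (olfactory, vomeronasal, taste and trace amine) were used, and their 95th percentile, 275.2 for negative and 334.02 for positive hepatocytes, served as the floor. Each gene was read from its brightest probe set. Pairs of values give negative hepatocytes first, and each log2 ratio divides positive by negative signal. With 1 array a group there is no replicate and no test. The error at hand is technical: over 3131 genes whose 2 brightest probe sets both passed the floors, the ratios of the pair differed with an SD of 0.41 on the log2 scale, and 15.0% of pairs were 1.5-fold or more apart. As a measure of RNA quality, Gapdh read 21829.4 and 18296.9 at its 3' end and 6304.7 and 5844.1 at its 5' end. Beta-actin read 12912.3 and 13995.5 at its 3' end and 13310.9 and 16198.1 at its 5' end. In both arrays Gapdh was thus dimmer at the 5' end, whereas beta-actin was not. In such bulk RNA, fewer cells of a kind and less RNA per cell cannot be told apart.

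Hepatocyte markers were bright in both arrays, with Alb at 46434.5 and 38679.3 and all 7 measured markers above the floor. All 7 were lower in the positive array, with a median log2 ratio of -0.264 and sums of 216336.0 and 191121.0. Cholangiocyte and neutrophil markers (6 measured of each) lay below the floor in both arrays, and of 5 markers of T, B and NK cells only Cd8a exceeded it, in the negative array. Macrophage markers summed to 2555.8 and 2253.7 over 8 genes, with Clec4f at 379.2 and 354.7 and Vsig4 and Marco below the floor. Of the 4 above the floor, 1 was higher and 3 lower in the positive array. Sinusoidal endothelial markers summed to 3587.2 and 4547.3, and all 6 above the floor were higher in the positive array. Stellate cell markers summed to 3306.5 and 2892.7, and of the 6 above the floor 2 were higher and 4 lower. Lrat read 362.1 and 473.5, Rgs5 read 638.3 and 369.4, and Des lay below the floor. The part of other cells in the transporter signals was not tested.

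Of the 63 members, 28 exceeded the floor in at least 1 array, 21 in both, 3 only in the negative and 4 only in the positive array. The remaining 35 lay below the floor in both. Of all 18193 genes, 8248 were measured in both arrays and 8327 in neither. A further 1167 passed only the negative floor and 451 only the positive one. All genes thus leaned to the negative array alone, whereas members were near even at 3 and 4, which are small counts. Among the 28 members, 13 were higher and 15 lower in the positive array. Their median log2 ratio was -0.02, against 0.00 over all 9866 genes above the floor. With 13 higher and 15 lower, the members as a whole had no common direction. Within 0.2 of a log2 ratio of 0 lay 13 members. They include Slc36a1, Slc43a1 and Slc7a7, whose values are bounds, so their ratios may lie farther from 0. The quartiles were -0.22 and 0.42 for members and -0.2 and 0.23 for all genes above the floor. No member was at least 2-fold higher, where 1.15% of all genes were, and 1 was at least 2-fold lower, against 0.598% of all genes. At least 1.5-fold higher were 5 members, against 6.20% of all genes (612 of 9866), and at least 1.5-fold lower were 3, against 4.11% (405 of 9866).

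Of those 8 members, 6 were measured in both arrays and 2 are bounds from the positive array. Among the 21 members measured in both arrays 3 were higher and 3 lower by 1.5-fold, where 5.44% and 4.03% of 8248 genes were. A bound exists only where the bright array lies above the floor, so the 7 members seen in a single array lend no weight to these counts. Signal level matters for the higher direction, since 8.47% of genes with a mean signal under 1000 were 1.5-fold higher but 2.77% of brighter genes. For 1.5-fold lower the shares were 4.41% and 3.64%. Of the 8 members 1.5-fold apart, 5 had a mean signal under 1000, as had 16 of the 28 members and 5937 of the 9866 genes above the floor.

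**Figure D1:**
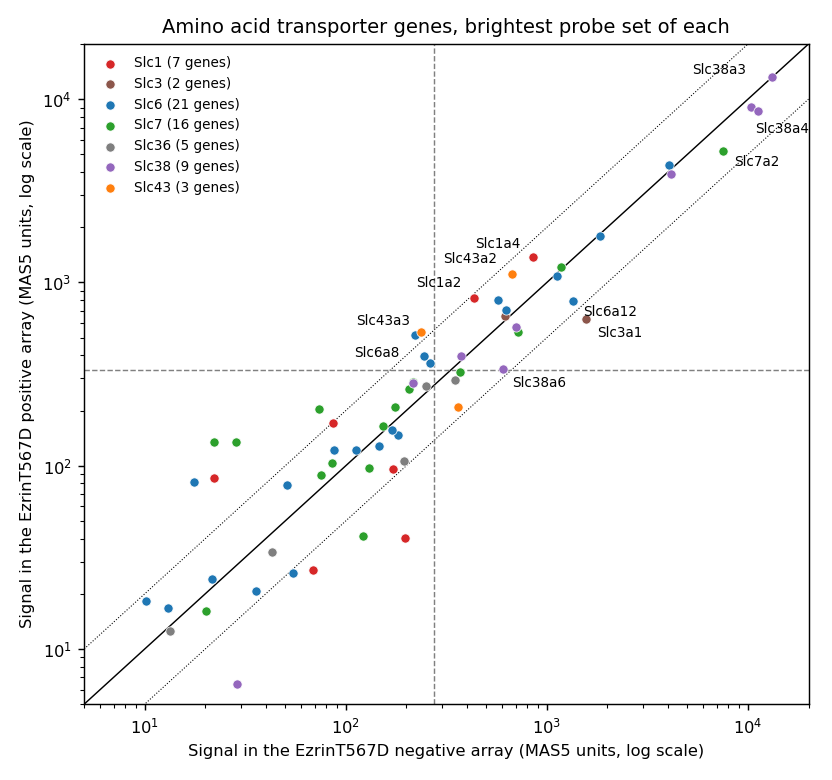
Signal of the brightest probe set of each of 63 transporter genes in the negative (x axis) and positive (y axis) array, in MAS5 units on log axes, coloured by family. The solid line marks equal signals, dotted lines 2-fold differences and dashed lines the floors of 275.2 and 334.02. Slc3a1 is the point above the floors beyond the lower dotted line.

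The heavy chains of the heteromeric exchangers differed from each other. Slc3a1 encodes rBAT, the heavy chain that brings the cystine and dibasic amino acid exchanger Slc7a9 to the cell surface. Its only probe set had a signal of 1567.1 in negative hepatocytes and of 628.0 in positive ones, which is 2.50-fold lower (log2 ratio -1.32). It was the lowest of the members and ranked 20 from the bottom among 8248 genes measured in both arrays. Slc3a2 encodes the CD98 heavy chain, the partner of most other light chains. Its probe set read 617.7 and 657.7 (log2 ratio 0.09), a difference well under the spread between probe sets.

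Among the light chains that these heavy chains carry, 7 of 8 listed ones lay below the floor in both arrays. Slc7a9, the partner of Slc3a1, read 152.9 and 165.3. Slc7a5 and Slc7a8, which exchange large neutral amino acids, read 28.5 and 135.2, and 22.1 and 134.9. The cystine and glutamate exchanger Slc7a11 read 20.1 and 16.2. Only Slc7a7, which exports cationic amino acids with the CD98 heavy chain, exceeded the floor, at 370.4 in the negative array against 325.4 in the positive (at least 1.11-fold lower).

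Both Slc1 genes that could be measured, of 7, were higher in the positive array. Slc1a2 encodes GLT-1, a high-affinity glutamate carrier found in pericentral hepatocytes as well as in astrocytes. Its brightest probe set read 435.8 and 820.1, 1.88-fold higher in positive hepatocytes (log2 ratio 0.91), the highest among members measured in both arrays and rank 121 of 8248 genes. Its next probe sets read 168.9 and 733.0 (at least 2.66-fold) and 140.1 and 489.1 (at least 1.78-fold). The last pair read 125.8 and 142.6, and 12.2 and 220.8, below the floor in both arrays. Only the brightest was above the floor in both arrays, so the ratio of Slc1a2 rests on that probe set. A probe set shared with Gm13872, left out here, read 167.3 and 229.9.

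Slc1a4 encodes ASCT1, which exchanges alanine, serine and cysteine. Its brightest probe set read 853.7 and 1382.0, 1.62-fold higher (log2 ratio 0.69). Its other 2 lay below the floor, at 75.4 and 126.6, and at 30.6 and 109.5. Slc1a4 therefore has no value when probe sets named _x_at, _s_at or _a_at are left out. The remaining 5 Slc1 genes lay below the floor in both arrays. They include the related glutamine exchanger Slc1a5 (68.3 and 26.9) and the glutamate carriers Slc1a1 (86.8 and 170.2) and Slc1a3 (22.2 and 85.4).

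The promoters of Slc1a2 and Slc3a1 are shown because these genes had the highest and the lowest ratio of the members measured in both arrays. Each runs from 250 bases before to 50 bases after the gene's start in RefSeq (GRCm38.p6), on the plus strand, at chr2:102706188-102706487 for Slc1a2 and chr17:85028097-85028396 for Slc3a1. Capitals mark matches to CTTTGA, the core of the site of TCF/LEF factors, on either strand.
Slc1a2: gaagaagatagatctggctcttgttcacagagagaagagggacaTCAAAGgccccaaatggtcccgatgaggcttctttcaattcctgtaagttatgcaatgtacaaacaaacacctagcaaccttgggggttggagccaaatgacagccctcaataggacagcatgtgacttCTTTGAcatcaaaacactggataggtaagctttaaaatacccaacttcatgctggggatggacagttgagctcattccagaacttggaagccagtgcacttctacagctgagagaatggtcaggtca
Slc3a1: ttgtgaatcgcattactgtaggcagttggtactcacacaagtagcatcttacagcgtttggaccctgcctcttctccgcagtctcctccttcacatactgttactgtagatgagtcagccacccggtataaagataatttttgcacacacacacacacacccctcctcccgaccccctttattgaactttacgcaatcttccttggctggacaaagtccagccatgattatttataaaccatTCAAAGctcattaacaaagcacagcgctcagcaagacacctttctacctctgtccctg
The Slc1a2 window holds 2 matches, 206 and 77 bases before the start, and the Slc3a1 window 1 match, 8 bases before it. Among 11 promoters of 6 members 1.5-fold apart with an entry in the table, these 2 held the core (18.2%), against 16.0% of all 32851 promoters, a share near the background. The element TGATGNAAT, bound by ATF4 with C/EBP factors, was in 0 of the 11 and in 0.965% of all promoters. It was in 1 of 67 promoters of 46 members, that of Slc6a21. A match is a description of these letters and was not tested as a site.

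**Figure D2:**
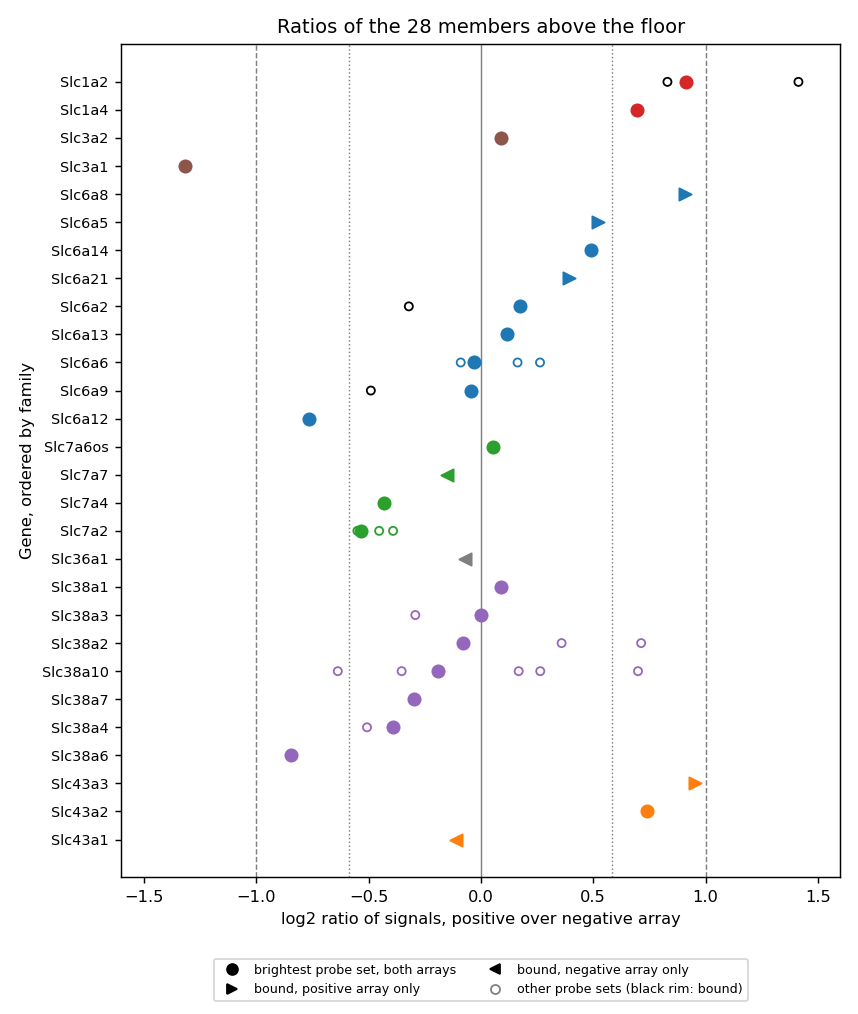
Log2 ratio of signals, positive over negative array, of the 28 members above the floor, ordered by family. Filled circles are the brightest probe set measured in both arrays, triangles are bounds, and open circles are other probe sets above the floor (black rim where a bound). Dotted and dashed lines mark 1.5-fold and 2-fold. Slc3a1 at -1.32 is the only member beyond 2-fold by its brightest probe set.

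The cationic amino acid carrier of the liver had a lower signal in positive hepatocytes. This is Slc7a2, or CAT-2, which carries arginine, lysine and ornithine. Its 4 probe sets read 7524.1 and 5194.4, 5189.5 and 3790.7, 4883.0 and 3725.0, and 2803.1 and 1914.9 in negative and positive hepatocytes. Their log2 ratios were -0.53, -0.45, -0.39 and -0.55, so all were lower by similar amounts, the brightest 1.45-fold. They lay closer together than the SD of 0.33 between probe sets of genes with signals of 1000 or more. All genes with a mean signal of 1000 or more had a median log2 ratio of -0.068, however. With quantile normalization the brightest Slc7a2 probe set was at -0.439, and with loess correction at -0.447. The related Slc7a1 (175.8 and 207.8) and Slc7a3 (121.7 and 41.3) lay below the floor. Slc7a4 read 722.3 and 535.7 (log2 ratio -0.43), with its other 2 probe sets below the floor. The gene Slc7a6os, no transporter, read 1176.1 and 1220.3 (log2 ratio 0.05).

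The Slc38 family, which holds the system A and system N carriers of glutamine, alanine and other small neutral amino acids, had more members measured in both arrays than any other family. Of 9 genes 7 were measured in both arrays, with a median log2 ratio of -0.19, and by the brightest probe set 1 was higher and 6 lower. Of those 6, Slc38a3 was at 0.00, and other probe sets of Slc38a2 and Slc38a10 pointed the other way. Slc38a3 encodes SNAT3, the system N carrier that moves glutamine in either direction across the hepatocyte membrane. Its brightest probe set read 13171.2 and 13169.7 (log2 ratio 0.00, counted as lower), and its other read 1278.1 and 1044.2 (-0.29). Slc38a4, a system A carrier abundant in liver, read 11274.4 and 8600.0 in its brightest and 9809.1 and 6903.4 in its other probe set. Both were lower in positive hepatocytes, by 0.39 and 0.51 on the log2 scale. With quantile normalization the brightest Slc38a4 probe set was at -0.305, and with loess correction at -0.285. A related system N gene, Slc38a5, read 28.9 and 6.4, below the floor.

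Slc38a2 encodes SNAT2, the system A carrier that cells induce when amino acids run short. Its probe sets differed in sign. The brightest read 4117.9 and 3900.3 (log2 ratio -0.08), whereas the others read 2026.2 and 3321.7 (0.71), and 1720.2 and 2205.7 (0.36). Averaged over the 3 the log2 ratio was 0.33. Slc38a1, also of system A, read 372.9 and 397.1 (0.09), near the floor. No direction can be given for Slc38a2.

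Slc38a6 read 606.4 and 337.6, 1.80-fold lower (log2 ratio -0.84), and its positive signal lay just above the floor of 334.02. Its other probe set read 126.3 and 28.4. With the floor at the 99th percentile it became a bound of -0.51, under 1.5-fold. Slc38a7, which carries glutamine and asparagine out of lysosomes, read 704.9 and 573.8 (-0.30). For Slc38a9, which senses lysosomal arginine for mTORC1, the brightest of 7 probe sets read 215.7 and 282.5, below the floor in both arrays, while another 2 exceeded the floor in the negative array alone (287.1 against 188.3, and 275.5 against 167.5).

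Slc38a10 also has 7 probe sets, the most of any member, and they disagreed. The brightest read 10377.1 and 9102.8 (log2 ratio -0.19), and the 5 others above the floor had ratios of -0.35, 0.26, 0.17, -0.64 and 0.70. No direction can be given for Slc38a10 either. Several probe sets passed a floor in 10 members, of which 4 had probe sets in opposite directions: Slc38a2, Slc38a10, Slc6a2 and Slc6a6. In 6 members with a measured pair of brightest probe sets, the pair's ratios differed by a median of 0.14 (log2), and the largest difference, for Slc38a2, was 0.79.

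**Figure D3:**
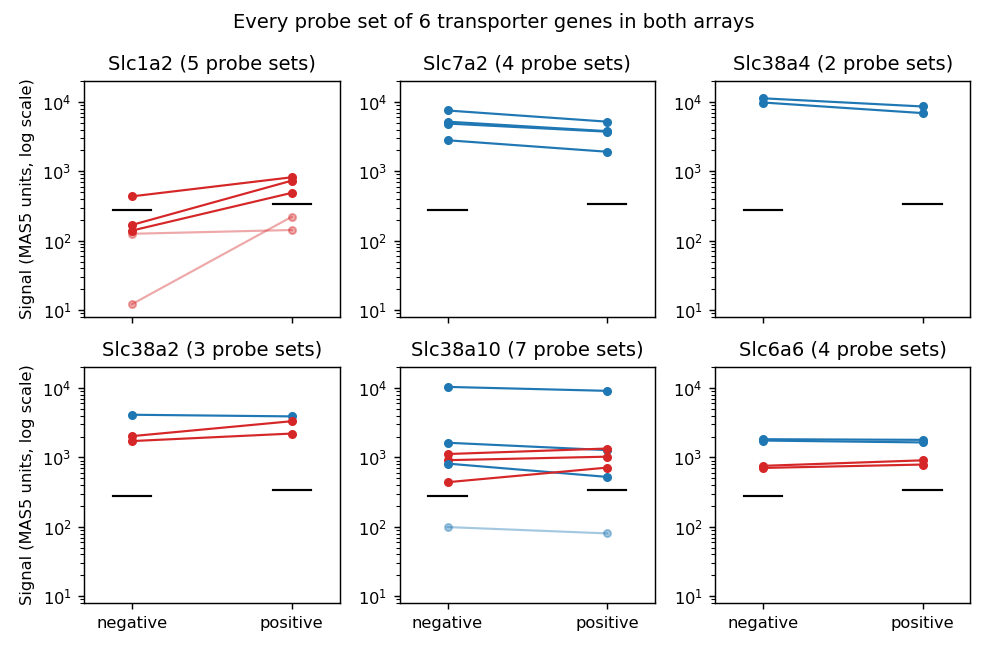
Signal of every probe set of 6 genes in the negative and positive array, in MAS5 units on a log axis, 1 line a probe set, red where higher and blue where lower in the positive array, faint where below the floor in both. Black bars mark the floors. Of 5 probe sets of Slc1a2 the brightest goes up and is the only one above both floors, all 4 of Slc7a2 and both of Slc38a4 go down, and those of Slc38a2, Slc38a10 and Slc6a6 go both ways.

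Slc6 carriers use sodium and chloride, and in liver they handle mainly osmolytes, GABA, creatine and glycine. Of 21 such genes 9 passed a floor, 6 of them higher and 3 lower. Slc6a12 encodes BGT1, which takes up betaine and GABA. It read 1342.7 and 789.0, 1.70-fold lower in the positive array (log2 ratio -0.77). Its relative Slc6a13, the GABA and taurine carrier GAT2, read 4041.8 and 4382.3 (0.12). Of these carriers of related substrates, 1 was thus lower and the other near equal in the arrays.

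Slc6a6, the taurine carrier, had 4 probe sets above the floor with log2 ratios of -0.03, -0.09, 0.26 and 0.16, the brightest at 1828.8 and 1790.5. The creatine carrier Slc6a8 read 222.0 in the negative array, below its floor, and 517.0 in the positive array, at least 1.88-fold higher. Its other probe set read 169.5 and 34.1, below the floor and in the opposite direction. For the glycine carrier Slc6a9 the brightest probe set read 1123.0 and 1090.1 (-0.04) and the other 469.1 and 333.1 (a bound of -0.49). The other glycine carrier, Slc6a5, read 245.7 and 394.9 (at least 1.43-fold higher).

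The broad neutral and cationic carrier Slc6a14 read 569.0 and 798.6 (0.49) by its brightest probe set and 37.9 and 49.8 in the other. Slc6a21 read 261.9 and 361.7, at least 1.31-fold higher. Slc6a2, the noradrenaline carrier of nerve endings, read 624.7 and 704.1 by its brightest probe set, while its second read 417.2 and 299.7. The epithelial neutral carrier Slc6a19 lay below the floor, at 10.1 and 18.3, as did the dopamine carrier Slc6a3 (168.8 and 156.0) and the serotonin carrier Slc6a4 (21.6 and 24.1).

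Carriers that equilibrate large neutral amino acids differed within Slc43. Slc43a2 encodes LAT4, a facilitated carrier of branched-chain amino acids and phenylalanine. Its brightest probe set read 669.5 and 1116.1, 1.67-fold higher (log2 ratio 0.74), but its others read 222.0 and 142.3, and 68.5 and 50.6, below the floor and lower. Slc43a1, the related LAT3, read 360.2 and 209.3, at least 1.08-fold lower. Slc43a3, which carries purine bases rather than amino acids, read 235.7 in the negative array, below its floor, and 533.2 in the positive array, at least 1.94-fold higher. The endothelial genes Cdh5 (283.0 and 507.0) and Bmp2 (274.7 and 508.3) were 1.79-fold and at least 1.85-fold higher, whereas Stab2 read 467.1 and 505.0. Their part in the Slc43a3 signal was not tested.

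The bounds for Slc6a8 and Slc43a3 rest on the negative floor. Without the probe set of the taste receptor Tas1r2, an alternative chosen after seeing the data, that floor is 252.66, and their bounds become 1.03 and 1.08 on the log2 scale, past 2-fold. The planned higher floors lower these bounds to just past 1.5-fold. They were 0.60 and 0.65 with the floor at the 99th percentile, and 0.63 and 0.68 with 1 floor of 334.02 for both arrays. The Slc36 genes were near the floor or below it. Slc36a1, a proton-coupled carrier that releases amino acids from lysosomes, read 350.9 and 294.1 (at least 1.05-fold lower). Signals of Slc36a2, Slc36a3, Slc36a4 and Slc36a1os lay below the floor in both arrays, between 12.5 and 270.7.

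The 35 members below the floor by their brightest probe set spanned 10.1 to 251.1 among negative and 6.4 to 287.7 among positive hepatocytes. Besides those named they are Slc1a6, Slc1a7, Slc6a7, Slc6a11, Slc6a15, Slc6a16, Slc6a17, Slc6a18, Slc6a19os, Slc6a20a, Slc6a20b, Slc7a6, Slc7a10, Slc7a12, Slc7a13, Slc7a14 and Slc7a15. Many are carriers of brain, kidney or gut. No ratio is given for them.

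Genes around the transporters were read from lists chosen with earlier results of these data known. Other amino acid transporters and accessory proteins had a median log2 ratio of 0.00 over 21 genes above the floor of 28 with a probe set, 10 higher and 9 lower. The aromatic amino acid carrier Slc16a10 was 1.93-fold higher (1800.6 to 3470.8) and the mitochondrial serine carrier Sfxn1 2.39-fold lower (4213.1 to 1760.5). The aspartate and glutamate carrier of mitochondria Slc25a13, which feeds the urea cycle, was 1.70-fold lower (2748.1 to 1616.4). Slc13a3, which takes up dicarboxylates and N-acetylaspartate, was 3.52-fold higher. Cltrn, the partner that brings Slc6a19 to the surface, lay below the floor in both arrays (31.7 and 3.8).

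Transcripts of the response to amino acid shortage, in which the kinase GCN2 (Eif2ak4) raises ATF4, had no common direction. Of its 18 measured genes 9 were higher and 9 lower (median 0.01). Atf4 read 8100.2 and 9326.1 (0.20), while its targets differed: Vldlr (2.87-fold) and Ddit3 (1.62-fold) were higher and Sesn2 was 1.61-fold lower. Atf3, also an immediate early gene, was 2.34-fold higher. Asns, Chac1, Psat1, Phgdh and Eif2ak4 lay below the floor. For amino acid sensing by mTORC1 10 of 28 genes were higher and 17 lower (median -0.10). Mtor read 1634.5 and 1644.4, and the farthest were Lamtor3 (-0.87) and Sesn2 (-0.68).

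Enzymes that use the transported amino acids had values at both ends, 3 of 28 at least 1.5-fold higher and 5 at least 1.5-fold lower, where 6.20% and 4.11% of all genes were. Glul, the pericentral glutamine synthetase whose substrate Slc1a2 brings in, was 2.17-fold higher (8783.1 to 19020.7), and Oat, which makes glutamate from ornithine, 2.07-fold higher. Csad, an enzyme of taurine synthesis, was 1.86-fold higher, next to log2 ratios near 0 for the taurine carrier Slc6a6. Arg1 (1.66-fold), Asl (1.77-fold) and Otc (1.55-fold) of the urea cycle were lower, as were Got1 (2.01-fold) and Ggt6 (1.88-fold). The other urea cycle genes of the list, each read from 1 probe set, differed less. Their log2 ratios were -0.39 for Cps1, 0.13 for Ass1 (1080.2 and 1180.1) and 0.03 for Nags, next to -0.53 for the arginine and ornithine carrier Slc7a2. Glutamine, glutamate and ornithine enzymes as a list had 12 of 28 genes higher and 16 lower, with a median of -0.11.

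Zone markers differed too, though their lists are not independent of those above. The pericentral list shares Glul and Oat with the enzymes and Slc13a3 with the other transporters. The periportal list shares 5 genes with the enzymes: Arg1, Asl, Cps1, Ass1 and Gls2, the last without a probe set of its own. Of 15 measured pericentral genes 14 were higher (median 1.11), from -0.03 for Cyp27a1 to 1.82 for Slc13a3. Of 19 measured periportal genes 18 were lower (median -0.87), from -2.16 for Aldh1b1 to 0.13 for Ass1. These lists hold no transporter of the 7 families. This shift of zone markers stands beside higher signals of Slc1a2, Slc1a4 and Slc43a2 and lower ones of Slc3a1, Slc6a12 and Slc38a6. These are the members 1.5-fold apart that were measured in both arrays. Slc7a2 was lower by less than 1.5-fold, and Slc38a3 was at 0.00. The part of the zone shift in these signals was not tested.

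**Figure D4:**
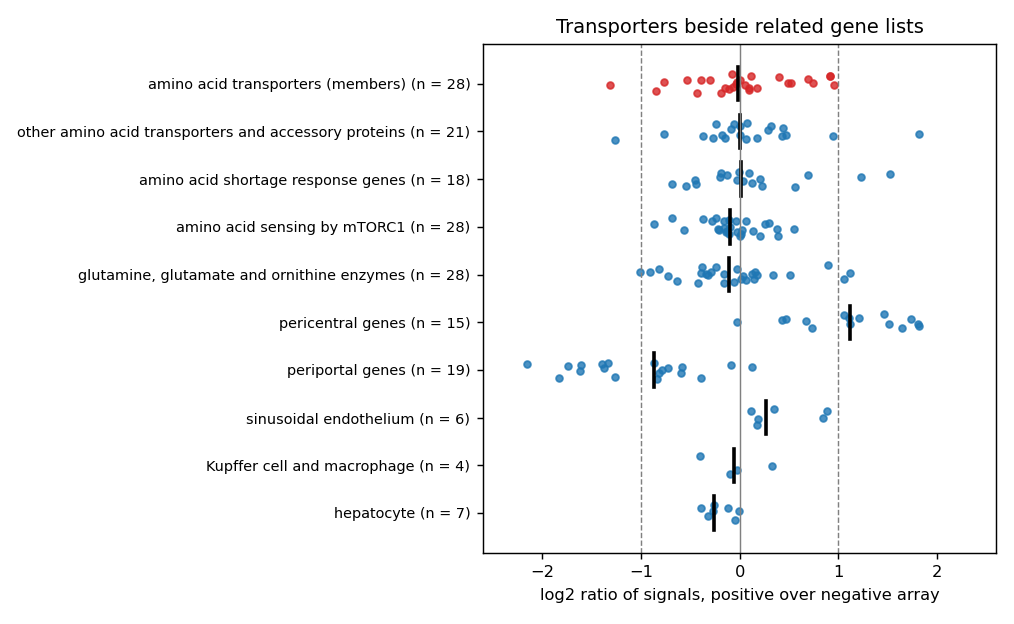
Log2 ratio of signals, positive over negative array, for every gene above its floor in the transporter families (red) and in 9 gene lists (blue), with black bars at the medians and dashed lines at 2-fold. Vertical position within a row is random. The transporters spread on both sides of 0 around a median of -0.02, while pericentral genes lie to the right (1.11) and periportal genes to the left (-0.87).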

How the data were processed

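The authors deposited probe set intensities on a linear scale, made with MAS5 per the submitters' processing notes. Its version is not given in the sources used here. Arrays scaled to one trimmed mean hide any change in total mRNA, and probe sets differ in affinity, so signals of different genes were not compared as levels. Of 45101 probe sets 34945 had 1 gene symbol, 932 several, 9160 none and 64 were controls. Platform annotation supplied the symbols, and RefSeq matched 34741 by Entrez ID with 0 changed. Groups came from the group label.

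A gene took its brightest probe set (highest mean of both arrays). A gene above the floor in a single array has a bound, with the dim signal raised to its floor, or a log2 ratio of 0 where that points the other way. Genes named are those 1.5-fold apart, the 12 brightest members and both heavy chains. Further names are examples picked after their values were seen. Members and lists were chosen with earlier results of these data known. Arrays of 1 per group allow no p-value. The steps were tested on simulated data. Analyses used Python 3.11.15, pandas 2.3.3, numpy 2.4.6, scipy 1.17.1, statsmodels 0.14.6 and matplotlib 3.10.9. Alternatives were quantile normalization, loess (span 0.3), other floors, means over probe sets, exclusion of probe sets of shared probes and of genes ending in os. Probe sets of shared probes are those named _x_at, _s_at or _a_at. They were left out whether shared with another gene or only among transcripts of the same gene.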

Additional observations from a re-analysis of the deposited data

How the results depend on the processing

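Under 10 alternatives, 8 planned and 2 chosen after seeing the data, 174 of 176 log2 ratios of the 18 named genes stayed within the technical SD of 0.41, and 0 of those past 1.5-fold changed sign. Settings that change only the floor or the genes kept cannot alter a ratio whose signals stay above both floors. Much of this agreement was therefore fixed in advance. The exceptions arose without probe sets of shared probes, where Slc1a2 became a bound of 1.41 and Slc38a10 0.26. That setting leaves no value for Slc1a4 and Slc3a2, so 4 members were 1.5-fold higher. Without a floor, which admits all 63 members, the median was 0.091, 7 members were 2-fold higher and 6 lower, and 14 were 1.5-fold higher and 12 lower, where 16.9% and 15.5% of all 18193 genes were. At least 2-fold higher was 1 member with the mean over probe sets, 1 without probe sets of shared probes and 2 with the floor set without Tas1r2. With only genes measured in both arrays, 3 were 1.5-fold higher. All other counts and medians stayed within 1.5 times, or within 0.10, of the main values. Each group had 1 array, so the spread between animals is unknown, and signals near the floor limit what can be said of most members.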
